A study of Mus musculus with 170 samples.

Results

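Collagen chains are modified in the endoplasmic reticulum before they fold and are cross-linked after they leave the cell, and 10 genes of this machinery were followed here out of 40549 in the deposited table. They are P4ha1, P4ha2 and P4ha3, the catalytic alpha subunits of collagen prolyl 4-hydroxylase, and P4hb, its shared beta subunit. They also include the lysyl hydroxylases Plod1, Plod2 and Plod3, the collagen chaperone Serpinh1, and the lysyl oxidases Lox and Loxl2. The genes were chosen by their measured levels in this same table, starting from P4ha2, whose level differed between the genotypes compared below. The differences between those genotypes are therefore a description of the cells and carry no test.

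The cells came from the ventricular part of C57BL/6 mouse hearts at E9.5 and were profiled one by one with Smart-seq2, a full-length RNA-seq method primed on poly(A) tails. Control embryos were Dgcr8 loxP/loxP; Rosa26 mT/mG/+ without Cre and are labelled wild type. The conditional knockout (cKO) embryos had the same floxed Dgcr8 and Rosa26 alleles plus Mesp1 Cre/+, and are labelled Mesp1Cre/+; Dgcr8-/-, so the floxed alleles and the membrane reporter were common to both genotypes and the Cre knock-in was present in the cKO alone. Cre was driven by the Mesp1 locus, which is active in early cardiovascular progenitors, so cells outside that lineage kept intact Dgcr8. Dgcr8 encodes a subunit of the microprocessor, which cuts microRNA precursors out of their primary transcripts. Values are TPM, abundances divided by transcript length and scaled to a near-constant total in each cell (column sums 996133 to 999999), so levels of different genes can be compared, while sequencing depth is unknown. The labels name no embryo, so each genotype counted as 1 sample. The SDs below describe the scatter across cells, and intervals of shares cover counting error only.

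Prolyl 4-hydroxylase is a tetramer of a pair of alpha subunits and a pair of beta subunits. It hydroxylates prolines in collagen repeats, which stabilises the triple helix, and it needs molecular oxygen, iron and 2-oxoglutarate. P4ha1 encodes the widely expressed alpha subunit, P4ha2 the form that is prominent in cartilage and endothelium, and P4ha3 a form usually found at low levels. The lysyl hydroxylases use the same cofactors, and Plod2 is known for modifying the collagen telopeptides where cross-links form. P4ha1, P4ha2, Plod2, Lox and Loxl2 are also textbook target genes of the hypoxia-inducible factor HIF-1.

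The sequences around an annotated RefSeq start were read for the 3 alpha subunits, because these paralogs differed most in the cells below. Each window (RefSeq, build GRCm38.p6) spans 250 bases before and 50 bases from the annotated start, on the strand of the gene. Capitals mark the core of the HIF-binding motif, searched as ACGTG and GCGTG on both strands. The window of P4ha1 is chr10:59323046-59323345, that of P4ha2 is chr11:54100674-54100973 and that of P4ha3 is chr7:100285270-100285569, all on the forward strand. The P4ha2 window lies inside the gene as placed by GENCODE vM21, which starts at 54100095, so a different start was used there. The windows of P4ha1 and P4ha3 span their GENCODE starts.
P4ha1: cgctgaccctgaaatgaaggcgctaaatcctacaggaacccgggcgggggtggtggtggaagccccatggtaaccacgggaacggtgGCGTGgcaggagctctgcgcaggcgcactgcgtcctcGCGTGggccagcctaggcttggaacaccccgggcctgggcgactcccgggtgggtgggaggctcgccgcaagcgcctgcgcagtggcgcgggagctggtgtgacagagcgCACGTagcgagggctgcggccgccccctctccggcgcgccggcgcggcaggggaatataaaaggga
P4ha2: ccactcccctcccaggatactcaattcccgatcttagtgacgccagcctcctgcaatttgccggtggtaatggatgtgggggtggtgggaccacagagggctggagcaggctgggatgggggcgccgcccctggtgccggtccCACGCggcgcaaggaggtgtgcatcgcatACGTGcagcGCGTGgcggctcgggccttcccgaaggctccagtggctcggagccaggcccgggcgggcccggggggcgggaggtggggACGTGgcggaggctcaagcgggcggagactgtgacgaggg
P4ha3: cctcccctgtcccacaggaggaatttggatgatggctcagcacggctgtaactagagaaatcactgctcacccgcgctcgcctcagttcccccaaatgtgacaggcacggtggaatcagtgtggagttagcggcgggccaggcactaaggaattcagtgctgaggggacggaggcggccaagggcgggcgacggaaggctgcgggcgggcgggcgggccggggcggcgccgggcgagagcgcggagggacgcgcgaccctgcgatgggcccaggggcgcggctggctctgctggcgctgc

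P4ha2 held 4 matches, P4ha1 held 3 and P4ha3 held 0. At least 4 matches were found in 3.86% of 32851 promoters of the same length, at least 3 in 8.93% and at least 1 in 43.8%. The other windows in the RefSeq table held 4 matches in Plod3, 3 in P4hb, 2 in Plod1 and 1 in Serpinh1. A match is a run of letters and no evidence that a factor binds there. Plod2, Lox and Loxl2 were not in this table. One mature microRNA is also shown, because the study introduced it into cKO heart cells. Its seed, bases 2 to 8, is in capitals.
mmu-miR-541-5p: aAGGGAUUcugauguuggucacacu

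The complement of this seed occurred once in the longest annotated 3' untranslated region of Loxl2 and in none of the other 9 genes, against 9.38% of 11835 expressed genes that held at least 1 match.

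The table covered 143 cells, with 35 control and 35 cKO cells in sequencing batch 1 and 39 and 34 in batch 2. Between 2063 and 14139 genes were detected per cell at a TPM above 0. Ward clustering on 55 marker genes gave a cardiomyocyte-like (CM-like) cluster of 25 control and 66 cKO cells, in which all 15 cardiomyocyte markers were raised. A cluster of 22 control cells raised all 13 endothelial markers. Another of 14 control cells raised 5 of 6 epicardial and 8 of 14 mesenchymal markers and is called epicardial-like below. The 5 erythroid-like cells were all control, and 11 cells led by mitochondrial transcripts, 3 of them cKO, were left unnamed. The endothelial-like and epicardial-like classes thus had no cKO counterpart. The targeted gene Dgcr8 averaged 2.60 ± 2.92 on the log2(TPM + 1) scale among control CM-like cells and 1.69 ± 2.47 among cKO CM-like cells, a gap smaller than the scatter, and whole-gene TPM can include transcripts that lack the deleted part. In all classes together, 56 of 69 cKO cells but 0 of 74 control cells reached a TPM of 10 for Xist, and 0 cKO but 40 control cells did for the Y-linked Ddx3y. Genotype and sex of the embryos therefore cannot be told apart. None of the 10 genes is on a sex chromosome.

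The largest difference was that of P4ha2 (chromosome 11, 54100095 to 54131665, GRCm38), a gene on the forward strand without an overlapping neighbour in GENCODE vM21. Among the 25 control CM-like cells its log2(TPM + 1) ran from 0 to 6.06 with a median of 1.90, and among the 66 cKO CM-like cells from 1.02 to 9.80 with a median of 8.06. The ranges overlapped, but 58 of 66 cKO cells lay above the highest control cell. The mean was 2.65 ± 2.14 (SD, n = 25 cells) in control and 7.64 ± 1.90 (SD, n = 66 cells) in cKO. The difference of 4.99 log2 units was 4.84 in batch 1 and 4.61 in batch 2. In plain TPM, the median cell held 2.74 in control and 266.9 in cKO. Only 3 other genes among 14970 had as large a share of cKO cells above every control cell. Since P4ha2 was chosen on this contrast, nothing is read from this rank.

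The share of CM-like cells with a P4ha2 TPM above 0 differed little. P4ha2 was above 0 in 24 of 25 control cells (96%, exact Clopper-Pearson 95% interval 79.6 to 99.9%) and in 66 of 66 cKO cells. With a minimum of 1 TPM the shares became 64% and 100%, and with 10 TPM 36% and 95.5%. A TPM above 0 can be a trace, as Xist was above 0 in 47 of 74 control cells but reached 1 TPM in 3. Presence and amount per cell were therefore not told apart.

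P4ha1 (chromosome 10, 59323296 to 59373304), the other main alpha subunit, was higher in cKO cells by a smaller amount. Its log2(TPM + 1) had a lowest value of 0.24, a median of 5.00 and a highest value of 6.86 in control cells. The cKO cells had 0.23, 6.91 and 9.04, and 33 of 66 lay above the highest control cell. The means were 4.05 ± 2.34 and 6.27 ± 2.09, a difference of 2.21 that was 2.22 in batch 1 and 1.59 in batch 2. Each genotype thus held cells near 0.

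P4ha3 stayed low in both genotypes. It was detected in 9 of 25 control cells (36%) and 28 of 66 cKO cells (42.4%), its highest value was 3.29 in control and 4.73 in cKO, and the means differed by −0.02. The exact intervals of the detected shares, 17.97 to 57.5% and 30.3 to 55.2%, overlapped.

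P4hb encodes protein disulfide isomerase, which serves as the beta subunit and also folds many other secreted proteins. It ran from 1.11 to 8.31 in control cells with a median of 7.74 and from 5.34 to 10.31 in cKO cells with a median of 8.71, and 44 of 66 cKO cells were above the highest control cell. The difference of the means was 1.54, with 1.15 in batch 1 and 1.92 in batch 2.

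**Figure D1:**
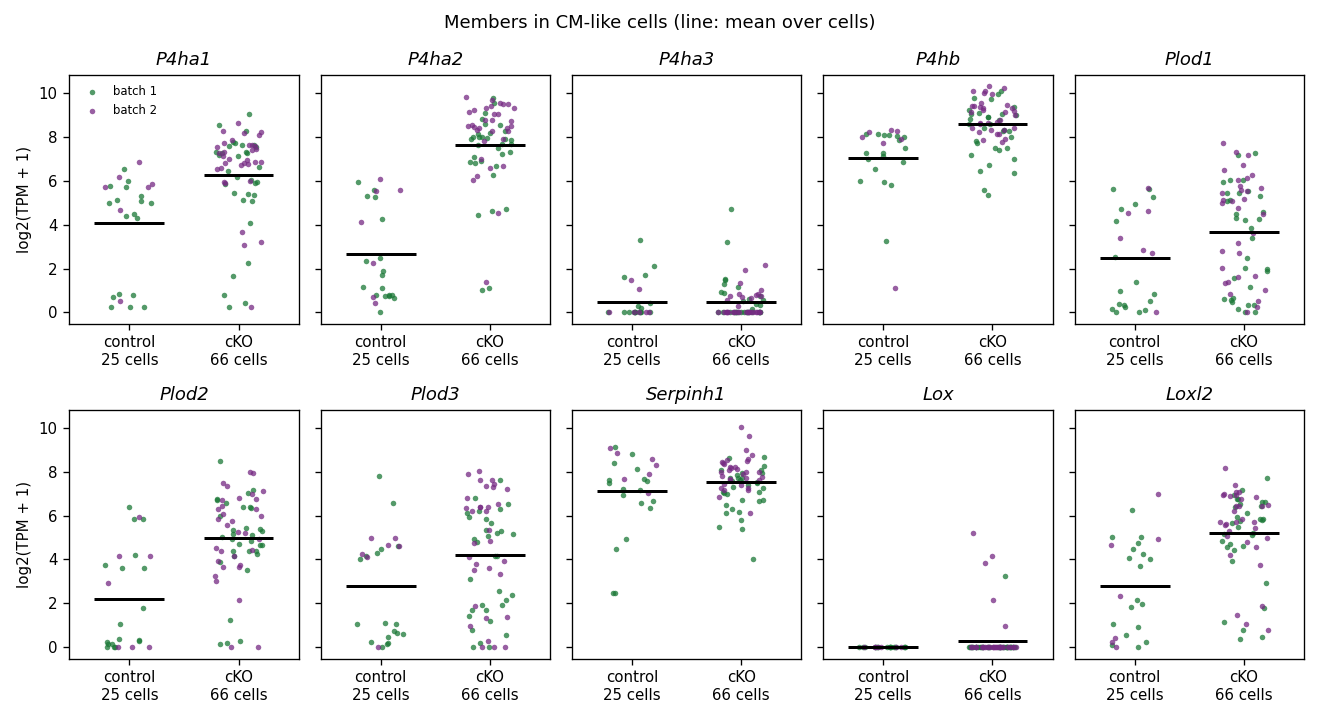
Level of each of the 10 genes as log2(TPM + 1) on the vertical axis, in control and cKO CM-like cells on the horizontal axis. Each point is 1 cell, coloured by sequencing batch, and the line is the mean over cells. P4ha2 shows 58 of 66 cKO cells above the highest control cell, while P4ha3 and Lox have a median of 0 in both genotypes and Serpinh1 has medians of 7.57 and 7.67.

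The balance between the alpha subunits differed between the genotypes. P4ha2 was chosen because its level differed between them, so this shift follows in part from that choice. P4ha2 exceeded P4ha1 in 8 of 25 control CM-like cells (32%, exact interval 14.9 to 53.5%) and in 58 of 66 cKO CM-like cells (87.9%, 77.5 to 94.6%). In cKO cells P4ha2 was on average 1.38 ± 1.16 log2 units above P4ha1, with 1.28 in batch 1 and 1.47 in batch 2. In control cells it was 1.40 units below, as a mean of −1.40 ± 2.83, with −1.35 in batch 1 and −1.55 in batch 2. The control median was nearer to equal levels, at −0.62, with −0.15 in batch 1 and −1.58 in batch 2. Single control cells ran from −6.43 to 5.54. P4ha2 made up a median of 72.02% of the summed alpha subunit TPM in cKO cells and 23.9% in control CM-like cells. The summed alpha subunits had a median TPM of 429.7 in cKO and 54.96 in control cells, beside a median P4hb of 417.6 and 212.6. Alpha subunit transcripts outnumbered P4hb in 26 of 66 cKO cells, in 1 of 25 control CM-like cells and in none of the 22 endothelial-like or 14 epicardial-like cells.

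No control class shared the cKO balance, which again follows in part from the choice of P4ha2. P4ha2 exceeded P4ha1 in 6 of 22 endothelial-like cells (27.3%, 10.7 to 50.2%) and in 5 of 14 epicardial-like cells (35.7%, 12.8 to 64.9%), and it made up a median of 4.95% and 35.8% of the alpha subunit TPM there. P4ha1 and P4ha2 share no run of 31 bases between their annotated transcripts, so identical reads of that length could not have moved between them.

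**Figure D2:**
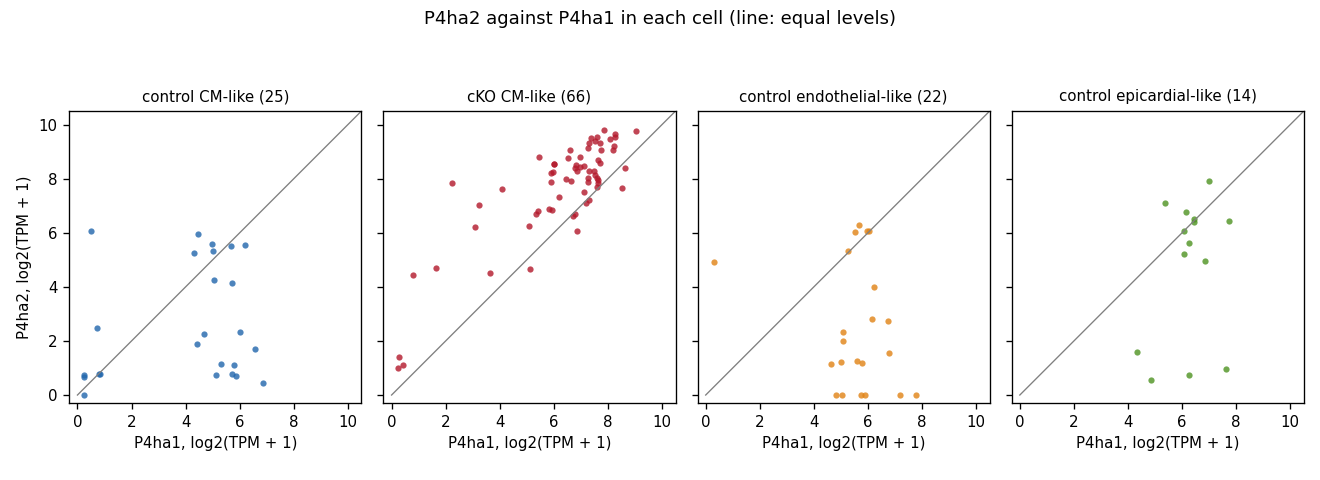
P4ha2 on the vertical axis against P4ha1 on the horizontal axis, both as log2(TPM + 1), in each cell of 4 classes, with the number of cells in each panel title and a line at equal levels. In the cKO panel 58 of 66 cells lie above the line, and in the 3 control panels 8 of 25, 6 of 22 and 5 of 14 do.

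Of the lysyl hydroxylases, Plod2 (chromosome 9, 92542223 to 92608428) differed most. Control cells ran from 0 to 6.41 with a median of 1.07, and cKO cells from 0 to 8.47 with a median of 5.18. The ranges overlapped over most of their length, and 16 of 66 cKO cells were above the highest control cell. The means were 2.19 ± 2.33 and 4.98 ± 1.98, a difference of 2.79, with 2.73 in batch 1 and 2.69 in batch 2. The share of cells with Plod2 at 10 TPM or more was 40% for control and 86.4% for cKO. The exons of Plod2 overlap those of Gm38391 on the other strand, and 316 of the 5386 annotated runs of 31 bases of Plod2 lie in Gm38391 as well. Gm38391 has no TPM values here, so its part in the Plod2 values is unknown.

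Plod1, whose product hydroxylates lysines in the helical region of collagen, had a median of 2.51 in control and 4.26 in cKO cells. Its difference of the means was 1.20, with 1.16 in batch 1 and 0.67 in batch 2. Plod3, which also transfers sugars to hydroxylysine, had medians of 4.01 and 4.82 and differed by 1.41, with 1.37 in batch 1 and 0.75 in batch 2. Both differences were smaller than the SD across cells and fell below 1 log2 unit in batch 2, which held 7 control CM-like cells. The exons of Plod3 overlap those of Znhit1 on the other strand, and 469 of its 4602 annotated runs of 31 bases lie in Znhit1 as well. The mean level of Znhit1 was 5.31 for control and 5.07 for cKO. Smart-seq2 does not keep strand, so reads from the overlap cannot be told apart.

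Within a cell, Plod2 was the most abundant of the 3 lysyl hydroxylases in 8 of 25 control cells (32%, 14.9 to 53.5%) and in 29 of 66 cKO cells (43.9%, 31.7 to 56.7%). Within batches the cKO counts were 18 of 33 and 11 of 33, and the control counts 7 of 18 and 1 of 7. Plod2 made up a median of 15.1% of the summed lysyl hydroxylase TPM in control cells and 31.03% in cKO cells, with 50.8% in batch 1 and 25.3% in batch 2 of the cKO. The summed Plod1, Plod2 and Plod3 came to a median of 32.3 TPM for control and 115.8 for cKO.

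Serpinh1 encodes HSP47, the chaperone that binds the folded collagen helix. It was abundant and similar in both genotypes, with a lowest, median and highest log2(TPM + 1) of 2.46, 7.57 and 9.11 in control and 4.00, 7.67 and 10.04 in cKO cells. The difference of the means was 0.45, with 0.44 in batch 1 and −0.21 in batch 2, so its direction changed between batches. Only 2 of 66 cKO cells lay above the highest control cell.

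Loxl2 (chromosome 14, 69609068 to 69695834) encodes a lysyl oxidase that cross-links collagen IV in basement membranes. It ran from 0 to 6.96 in control cells with a median of 2.34 and from 0.39 to 8.18 in cKO cells with a median of 5.72. The means were 2.79 ± 2.19 and 5.22 ± 1.93, a difference of 2.43 that was 2.19 in batch 1 and 2.68 in batch 2. The ranges overlapped, with 7 of 66 cKO cells above the highest control cell. Its values carry an uncertainty of assignment: 46.4% of its annotated runs of 31 bases also occur in other genes, mostly in the unprocessed pseudogene Gm21451, and its exons overlap the antisense gene Gm27177. Gm21451 averaged 0.96 among control and 0.76 among cKO cells, and Gm27177 had 1.92 and 1.63. How many reads were assigned to the wrong one of these genes was not tested.

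Lox, the main lysyl oxidase of fibrillar collagen and elastin, was nearly absent from the table. It was at 0 in 25 of 25 control CM-like cells, which leaves a share of up to 12% by a limit of 3 cells and of 13.7% by the exact interval, and was detected in 6 of 66 cKO cells (9.09%, 3.41 to 18.7%). Of these 6 cells, 1 was in batch 1 and 5 in batch 2, and the highest had a log2(TPM + 1) of 5.19. These shares were not distinguishable at this number of cells.

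A gene was called between genotypes when its mean log2(TPM + 1) differed by at least 1 unit in the same direction in both batches, among genes with a TPM above 0 in more than 10 CM-like cells. By this rule 5 of the 9 members that passed the filter were called higher in cKO cells, namely P4ha1, P4ha2, P4hb, Plod2 and Loxl2, and 0 were called lower. Lox did not pass. Over all 14970 genes 3.29% were called higher and 3.17% lower. Since the members were chosen on this contrast, nothing is read from the excess. The median difference of the 9 members was 1.54 log2 units, with 1.37 in batch 1 and 1.59 in batch 2, beside 0.06 over all genes, with 0.15 and −0.12.

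The 5 called members were counted jointly in each cell. All 5 passed 10 TPM (or equalled it) in 47 of 66 cKO cells (71.2%, 58.7 to 81.7%), with 23 of 33 in batch 1 and 24 of 33 in batch 2. The same held in 4 of 25 control CM-like cells (16%, 4.54 to 36.1%), in 3 of 14 epicardial-like cells and in 0 of 22 endothelial-like cells (up to 13.6% by a limit of 3 cells and 15.4% by the exact interval). Since the 5 were called on the contrast between the genotypes, the larger share in cKO cells follows from their choice.

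Technical features of the CM-like cells also differed between the genotypes. The median share of mitochondrially encoded TPM was 6.24% in control and 2.95% in cKO cells. The median number of detected genes was 8477 in control and 9845 in cKO cells of batch 1, and 9582 and 7786 in batch 2. Their part in the members' differences was not tested beyond the alternatives that follow. Rescaling without mitochondrial transcripts left the P4ha2 difference at 4.98. Among CM-like cells with 7000 to 11000 detected genes, 22 control and 56 cKO, it was 5.09. P4ha1, P4ha2, Plod2 and Loxl2 were called under both of these settings, among cells with under 10% mitochondrial TPM and after rescaling by median-of-ratios size factors. P4hb was not called under either of the latter settings, at 1.02 in batch 1 and 0.94 in batch 2 among the cells with little mitochondrial TPM and at 0.82 and 2.01 after rescaling.

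The summed markers of other cell types had higher medians in cKO than in control CM-like cells. The summed TPM of the 13 endothelial markers had a median of 16.7 (range 1.82 to 231.9) in control and 23.97 (2.97 to 411.7) in cKO cells, against 2654 in endothelial-like cells, with Cdh5, Cd93 and Ptprb below a TPM of 1 in every CM-like cell. The 14 mesenchymal markers summed to a median of 223.9 (0.33 to 441.0) and 344.7 (3.52 to 1053), against 314.9 in endothelial-like and 1365 in epicardial-like cells. Gpc3 alone averaged 7.03 and 8.14 as log2(TPM + 1) in control and cKO, and Postn, Lum and Dcn were below 1 TPM in every CM-like cell. The 6 epicardial markers summed to 24.4 (0.31 to 132.2) and 35.3 (0 to 454.4), against 2076 in epicardial-like cells, and the 7 erythroid markers to 3.19 (0 to 356.6) and 7.62 (0 to 554.5). Of these 40 markers, Pecam1, Gpc3 and Wt1 alone had 1 TPM or more in the majority of CM-like cells, in control and in cKO alike. The part of such transcripts in the members' differences was not tested.

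The control classes placed these levels among other cells of the same heart. For P4ha2 the order of the means was cKO CM-like cells at 7.64, epicardial-like at 4.78 ± 2.61, control CM-like at 2.65, endothelial-like at 2.50 ± 2.33 and erythroid-like at 1.43 ± 2.54. Each neighbouring pair among the control classes differed by less than the SD across cells. P4ha1 averaged 6.27 in cKO CM-like and 6.24 ± 0.95 in epicardial-like cells. It averaged 5.56 ± 1.41 in endothelial-like, 4.05 in control CM-like and 3.59 ± 3.06 in erythroid-like cells. The P4ha1 means of cKO CM-like and epicardial-like cells were thus close, but their medians were 6.91 and 6.27 and their highest values 9.04 and 7.73. P4hb was highest in endothelial-like cells, at 9.26 ± 0.45, and epicardial-like cells, at 9.05 ± 0.69, both above the cKO mean of 8.60.

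**Figure D3:**
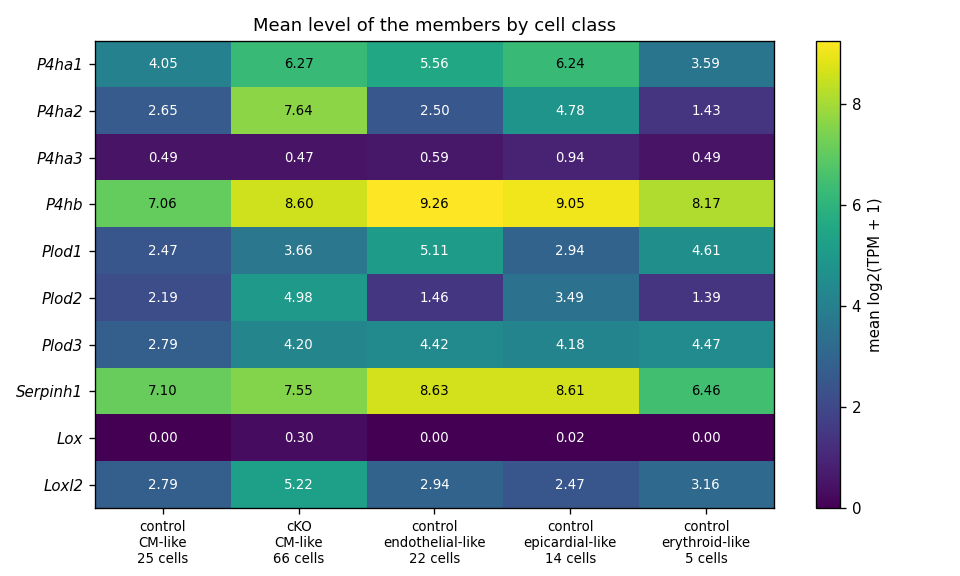
Mean log2(TPM + 1) of the 10 genes (rows) in 5 classes of cells (columns, with the number of cells), as colour and number. P4ha2, Plod2 and Loxl2 are highest in cKO CM-like cells, at 7.64, 4.98 and 5.22, while P4hb, Plod1 and Serpinh1 are highest in endothelial-like cells, at 9.26, 5.11 and 8.63.

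Endothelial-like and control CM-like cells were compared by the same measure, with a gene called at 1 log2 unit or more over the pooled control cells. Of 9 members that passed, 5 were called higher in endothelial-like cells and 0 lower, against 22.8% and 9.52% of 12918 genes. The called members were P4hb, at a difference of 2.20, Plod1, at 2.64, Plod3, at 1.63, Serpinh1, at 1.53, and P4ha1, at 1.51. P4hb and Plod1 were above 1 log2 unit in both batches. In batch 2 the differences of Plod3, Serpinh1 and P4ha1 were 0.42, 0.49 and 0.44, and the classes were divided unequally over the batches, with 18 and 7 control CM-like against 7 and 15 endothelial-like cells. P4ha2 differed by −0.15, with 1.25 in batch 1 and −1.52 in batch 2, and Plod2 by −0.73. Loxl2 differed by 0.15. The median over the 9 members was 1.51, and it was 0.42 in batch 2 alone, beside 0.29 over all genes.

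Epicardial-like cells had 6 of 9 members called higher than control CM-like cells and 0 lower, against 23.2% and 7.96% of 11821 genes. These were P4ha1 at 2.19, P4ha2 at 2.13, P4hb at 1.99, Serpinh1 at 1.51, Plod3 at 1.38 and Plod2 at 1.30. Within batches, Serpinh1 was 0.86 and 0.85 higher, below 1 log2 unit in both, and Plod3 was 1.73 higher in batch 1 and 0.28 in batch 2, while P4ha1, P4ha2, P4hb and Plod2 were above 1 in both. P4ha2 was 2.85 higher in batch 1, with 4 epicardial-like cells, and 1.10 in batch 2, with 10. Loxl2 differed by −0.33, with 1.08 in batch 1 and −0.88 in batch 2. Both of these comparisons use the same control CM-like cells as the comparison between genotypes, so their differences are not independent of it. P4ha2, Plod2 and Loxl2 were the 3 members whose cKO mean exceeded the mean of each control class by more than 1 log2 unit.

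The genes that act next to the members were taken from lists of the same pathway. The lists were chosen with earlier results of these data known, so nothing is read from their counts. Over all 14970 genes, 3.29% were called higher and 3.17% lower, and the median difference was 0.06. In the endoplasmic reticulum, 2 of 11 further collagen enzymes and chaperones were called higher in cKO CM-like cells and 0 lower, with a median difference of 0.50. They were Leprel4, now P3h4, a partner of lysyl hydroxylase, at 1.69 with 1.79 in batch 1 and 1.02 in batch 2, and Leprel1, now P3h2, a collagen prolyl 3-hydroxylase, at 1.53 with 1.78 and 1.60. The smallest differences were −0.13 for Colgalt2 and 0.13 for Fkbp14. Most of the 11 thus differed by less than the called members.

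Of the other lysyl oxidases, 1 of the 2 that passed the filter was called, and it was lower, as were 3.17% of all genes. Loxl1, which acts mainly on elastin, averaged 1.78 ± 2.01 among control and 0.38 ± 1.14 among cKO cells, and its difference of −1.39 was −1.30 in batch 1 and −1.46 in batch 2. Loxl3 differed by 0.37, with 0.34 in batch 1 and 0.43 in batch 2, and Loxl4 did not pass the filter. Of the procollagen proteinases and enhancers, 5 of 8 passed and 0 were called in either direction. Their extremes were Bmp1 at 0.19, Pcolce at 0.06, Tll1 at −0.11 and Adamts14 at −0.18, and all but Pcolce had means below 0.5 in CM-like cells.

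The next 2 lists are also set beside the 3.29% of all genes called higher, the 3.17% called lower and the median of 0.06. Of 5 measured procollagen export genes, Mia3, which loads collagen into transport vesicles, was called higher, at 2.07 with 2.13 in batch 1 and 1.78 in batch 2. Sec24d, a coat protein of these vesicles, differed by 2.11 but by 0.64 in batch 2, and Preb by −0.15, with 0.55 and −2.23. Of the disulfide isomerases and general folding genes, 3 of 10 were called higher and 0 lower, with a median of 0.80. Ero1l, now Ero1a, the oxidase that recharges disulfide isomerase, led with 3.20, from 3.53 ± 2.32 in control to 6.73 ± 1.60 in cKO cells. Hsp90b1 and Pdia4 were called as well, at 1.17 each. Hspa5, the general chaperone of the unfolded protein response, differed by 0.23 and Pdia6 by 0.44, with −0.13 in batch 1 and 1.25 in batch 2.

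Of 8 further enzymes that share the cofactors of the members, 4 were called higher and 0 lower, against 3.29% and 3.17% of all genes. Their median difference was 0.88, beside 0.06 over all genes. Egln1, the main prolyl hydroxylase of HIF alpha, differed by 2.47, from 1.71 ± 2.08 to 4.18 ± 2.49, with 2.65 in batch 1 and 2.28 in batch 2. Egln3, of the same family, differed by 2.07, from 0.25 to 2.32. Asph and Jmjd6 were the other two called. P4htm and Ogfod1 differed by −0.35 and −0.38, and P4htm changed sign between batches, at 0.60 and −2.61.

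Of 12 HIF-1 target genes outside the collagen pathway, 4 were called higher and 0 lower, against 3.29% and 3.17% of all genes. All 12 differences over both batches pooled were above 0, and the lowest within a batch was −0.07, in batch 2. Their median was 0.99, beside 0.06 over all genes. The list was chosen with earlier results of these data known, and a part of HIF-1 in these differences was not tested. Vegfa, a growth factor for endothelium, had 2.72, Bnip3, a mitophagy receptor, had 2.17, and Egln3 and Ndrg1 were also called. The smallest were Pdk1, at 0.47, and the glycolytic enzyme Ldha, at 0.59, which was abundant in both genotypes at 11.87 and 12.46. Egln3 counts in both this list and the preceding one. The study itself named Vegfa among genes of these cells, so it is not an independent pick.

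**Figure D4:**
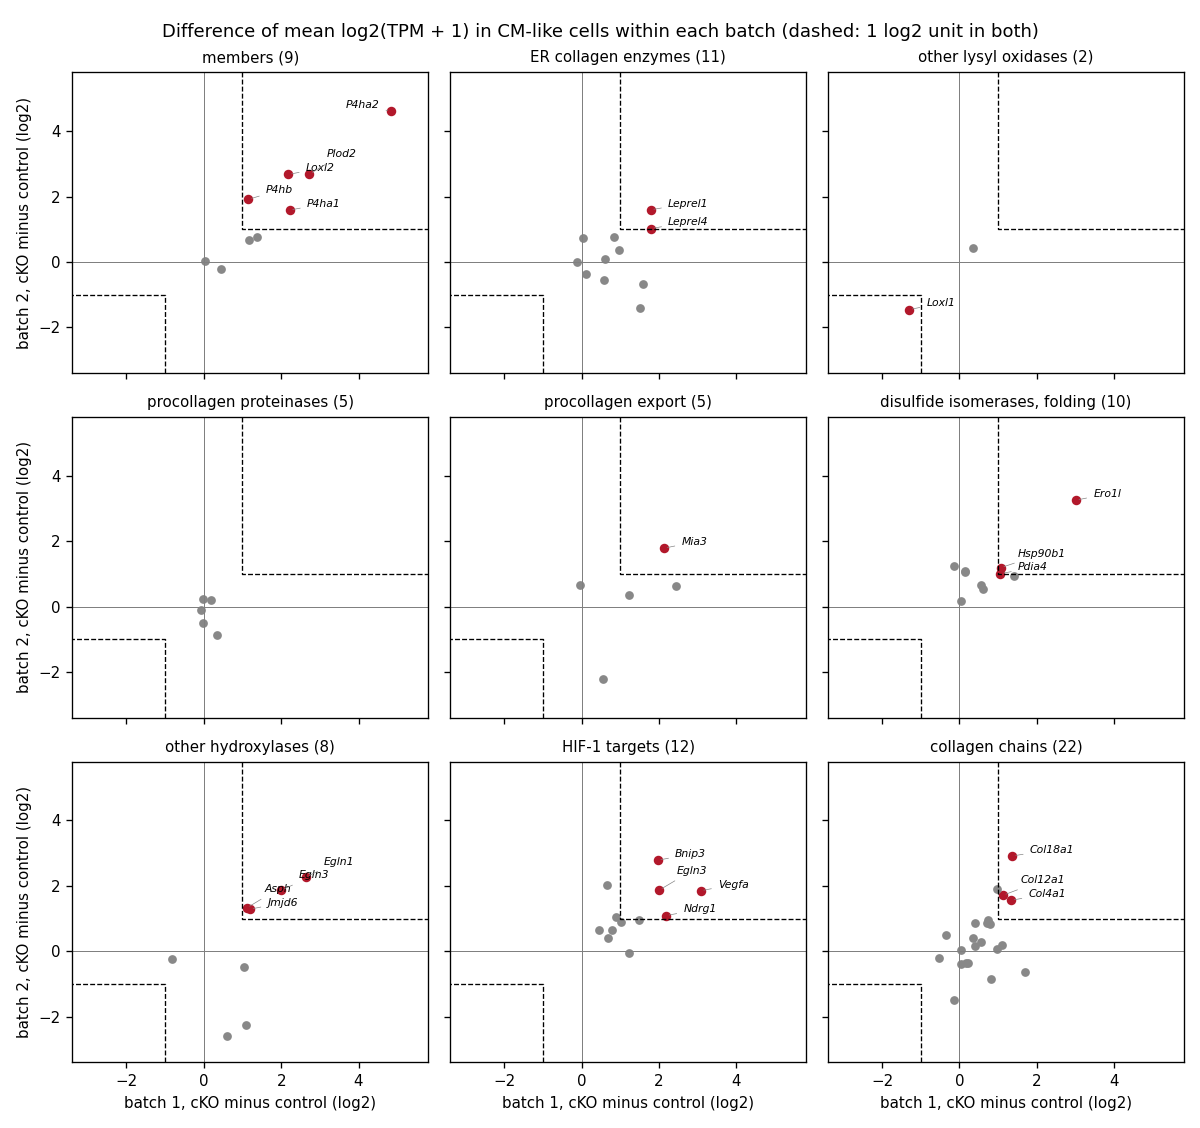
Difference of mean log2(TPM + 1), cKO minus control CM-like cells, in batch 1 (horizontal axis) and batch 2 (vertical axis) for the 9 members that passed the filter and 8 lists of genes near them. Each point is 1 gene, called genes are red and named, and dashed lines mark 1 log2 unit. P4ha2, at 4.84 and 4.61, lies beyond every other gene shown, and Loxl1, at −1.30 and −1.46, is the called gene that is lower.

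Over both batches pooled, each collagen chain, the substrate, differed by less than P4ha1 (2.21) and P4ha2 (4.99), while P4ha3 differed by −0.02. The alpha subunits were chosen by their levels in these data, so this contrast with the chains follows in part from that choice. Of 44 chains in the table, 22 passed, of which 3 were called higher and 0 lower, against 3.29% and 3.17% of all genes. Their median difference was 0.51, beside 0.06 over all genes. Col18a1, a basement membrane collagen, differed by 2.02, Col4a1, a chain of collagen IV, by 1.45 and Col12a1 by 1.44. Col4a2 differed by 1.45 but by 0.98 in batch 1, so it was not called. Fibrillar chains went both ways. Col1a2 and Col5a2 differed by −0.51 and −0.47 from means of 0.65 and 0.84 in control cells. Col1a1, Col2a1 and Col3a1 differed by 0.70, 0.58 and 0.36, and Col2a1 had the highest control mean of these, at 4.47. Col5a1 differed by 1.00, with 1.70 in batch 1 and −0.63 in batch 2. The summed TPM of all 44 chains had a median of 114.3 in control CM-like, 272.4 in cKO CM-like, 277.1 in epicardial-like and 767.0 in endothelial-like cells.

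Set against this substrate, the alpha subunits stood highest in cKO CM-like cells. The ratio of summed alpha subunit TPM to summed collagen chain TPM had a median of 0.31 in control CM-like cells, with 0.26 in batch 1 and 0.43 in batch 2, and of 1.28 in cKO CM-like cells, with 1.11 and 1.99. It was 0.53 in epicardial-like and 0.10 in endothelial-like cells. Alpha subunit transcripts outnumbered those of all collagen chains in 44 of 66 cKO cells, in 2 of 25 control CM-like cells, in 3 of 14 epicardial-like cells and in 0 of 22 endothelial-like cells. These are transcript ratios and do not measure enzyme or collagen protein. P4ha2 made up a median of 72.02% of the alpha subunit TPM in cKO cells and was chosen because its level differed between the genotypes. The higher ratio in cKO cells therefore follows in part from that choice.

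**Figure D5:**
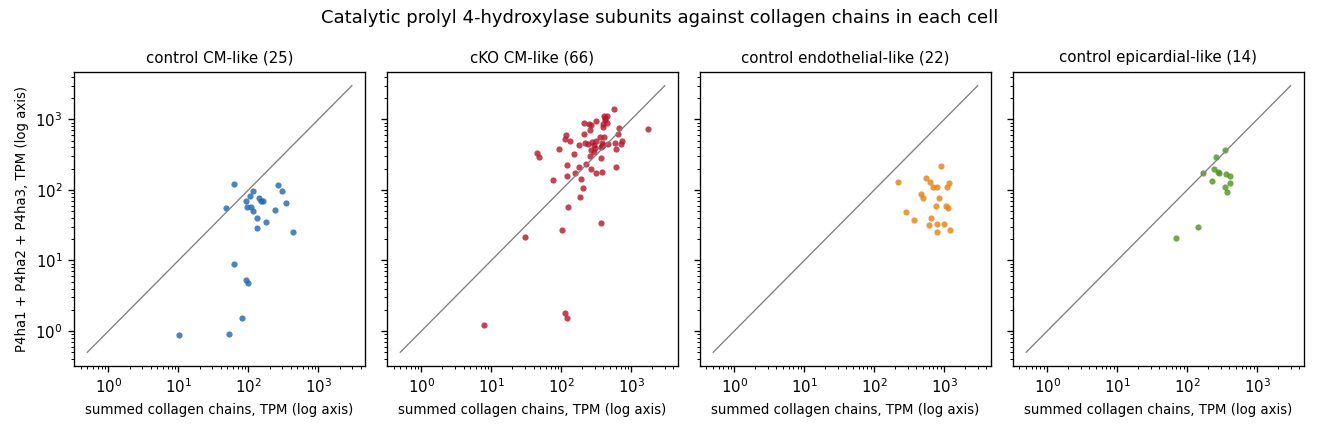
Summed TPM of P4ha1, P4ha2 and P4ha3 (vertical log axis) against the summed TPM of 44 collagen chains (horizontal log axis) in each cell of 4 classes, with a line at equal values and the number of cells in each panel title. In cKO CM-like cells 44 of 66 points lie above the line, in endothelial-like cells 0 of 22.

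Within the cKO CM-like cells, P4ha1 was the gene whose level followed P4ha2 most closely. Pearson's r of log2(TPM + 1) was 0.82 in batch 1 and 0.85 in batch 2 (33 cells each), the highest mean among 5919 genes with 1 TPM or more in 33 or more of these 66 cells. The next were Mfge8, a secreted protein of membrane surfaces, with a mean r of 0.80, the growth factor Bmp7 with 0.76, and Morf4l2 and Bsg with 0.69 each. The median over the 5919 genes was 0.16 and the 95th percentile 0.42. Of the other members Plod2 had 0.55, P4hb 0.53, Loxl2 0.52, Serpinh1 0.41, Plod1 0.40 and Plod3 0.21.

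These coefficients describe cells that share a batch and differ in how many genes were detected. P4ha2 itself had r = 0.61 with the number of detected genes in batch 1 and 0.37 in batch 2, and P4ha1 had 0.60 and 0.46. In control CM-like cells of batch 1 (n = 18) P4ha1 and P4ha2 had r = 0.39 and in those of batch 2 (n = 7) −0.50. In endothelial-like cells r was 0.13 in batch 1 (n = 7) and −0.32 in batch 2 (n = 15), and in epicardial-like cells of batch 2 (n = 10) it was 0.39. The difference between these coefficients was not tested.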

How the data were processed

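Per the labels and the study's methods, single ventricle cells were dissociated with trypsin and collagenase, picked by hand and amplified with Smart-seq2. The authors quantified reads with Salmon against mm10 with reporter sequences added, kept cells by mapping rate, removed cells whose reporter contradicted their genotype and deposited TPM. Versions are not given in the sources used here. The table held 143 of 170 labelled samples, and the other 27 were not analysed here. Reads carry no molecular identifiers.

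Cells were clustered by Ward linkage on z-scored log2(TPM + 1) of 55 markers into 5 clusters. A cluster was named from at least 3 raised markers of the class with the largest share. Means of log2(TPM + 1), with a pseudocount of 1 that understates changes of low genes, were compared without a test, because cells are not replicates. No cell was filtered and no doublet caller was run on hand-picked cells. Positions are from GENCODE vM21 (GRCm38, the build of mm10). The members and all gene lists were chosen with earlier results of these data known. Named genes are the members, up to 2 largest and 2 smallest differences of each list, the 5 genes most like P4ha2, and Dgcr8, Xist and Ddx3y. Other called list genes, other collagen chains and marker or neighbouring genes were named after their values were seen. Python 3.11.15, pandas 2.3.3 and SciPy 1.17.1 were used. Alternatives are given in the closing section.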

Additional observations from a re-analysis of the deposited data

Results flagged for a closer look

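P4ha2 was also read in the cells that entered no comparison. In the unnamed cluster led by mitochondrial transcripts, its mean log2(TPM + 1) was 3.19 over 3 cKO cells, at 0, 2.13 and 7.43, and 0.69 over 8 control cells, whose highest value was 1.97. Thus 2 of these 3 values exceeded the highest control value. The 11 cells had 2063 to 10851 detected genes and 4.32 to 61.4% mitochondrially encoded TPM, and the difference was not tested. No other member had more than 1 of the 3 cKO cells above the highest control cell there.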

How the results depend on the processing

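The alternatives bear on values without a test, so a value was taken as moved when it changed by more than 0.58 log2 units (1.5 times) and a share when it left its exact interval. No result between genotypes changed sign for a called member. The P4ha2 difference ran from 3.55 (pseudocount of 10) to 5.60 (pseudocount of 0.1) and was 4.23 as a log2 ratio of mean TPM. The members' median difference rose to 2.30 and their called count to 8 with 4 clusters, which adds the mitochondria-led cells, and the median was 0.64 over all cells of each genotype; the count was 4 to 8 over all alternatives, and P4hb was the call lost under size factors, under 10% mitochondrial TPM, with clusters on variable genes and over all cells. The median for endothelial-like cells was 0.85 with a pseudocount of 10, 0.84 as a log2 ratio, 2.13 with 4 clusters and 0.42 in batch 2, and that for epicardial-like cells was 0.79 with a pseudocount of 10. In all, 51 values for whole comparisons stayed within these limits and 11 moved, 156 values for single genes or balances stayed and 32 moved, and 17 detected shares stayed and 23 moved with a TPM minimum of 1 or 10. The cause was not tested. Over all genes, 492 were called higher and 474 lower, against 936 and 891 with a pseudocount of 0.1, 157 and 117 with a pseudocount of 10, 1224 and 327 as a log2 ratio, 1096 and 135 with 4 clusters, 390 and 739 with clusters on 1000 variable genes, 1790 and 695 in batch 1 alone and 1080 and 2993 in batch 2 alone. Clustering on variable genes split the CM-like cells over 3 clusters, with 44 of the cKO cells in a cluster that held 1 control cell, and P4ha2 differed by 5.18 over their union. No paired analysis was possible because every label number belongs to a single picked cell and nothing here comes from a test. Depth per cell is unknown, and 7 control CM-like cells in batch 2 limit the values there.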
